A study of Mus musculus with 4 samples.

Results

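The regions described here are the widest peaks of 5-hydroxymethylcytosine (5hmC) in chondrocytes, chosen by their width alone: peaks of the merged day 20 list that span 1500 bp or more on chromosomes 1 to 19. Of 56698 entries in that list, 56102 had readable positions on these chromosomes, and 1613 of those (2.88%) were wide by this rule. They come from ATDC5, a chondrogenic line of mouse cells grown in DMEM/F12 medium with fetal bovine serum, glutamine, an antibiotic mix and ascorbic acid, to which Insulin-Transferrin-Selenite was added to drive differentiation. The chondroprogenitor group held 2 libraries at day 0, before that supplement, and the chondrocyte group held 1 library labelled day 19 and 1 labelled day 20. DNA carrying 5hmC was captured chemically from genomic DNA. For each stage the authors deposited 1 list of peaks from merged samples that passed a 10-fold enrichment. Whether the merged day 20 list includes the day 19 library is not stated. The model is 1 cell line in culture, samples were merged before peaks were listed, and read depth is unknown. Positions of 5hmC carry no expression values, so the stages were not checked against marker genes. No spread between replicates could be measured, so no comparison below tests a difference between stages, and peaks of 1 list are not replicates. The intervals given are 95% intervals that cover counting error over peaks only.

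As background, 5hmC is made from 5-methylcytosine by the TET dioxygenases and occurs almost wholly at CpG dinucleotides. In differentiated cells it is known to lie in the bodies of active genes and at enhancers and to be low at CpG-rich promoters, where the cytosines are mostly unmethylated. A peak list turns this signal into intervals, and a wide interval is a stretch in which the enriched fragments stayed above the caller's limit without a break. The width of a peak therefore describes how far enrichment reached along the DNA and is not a measure of height or amount, and the lists gave no height.

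Width chose the members, so the widths themselves are a description. The median wide peak spanned 1748 bp (quartiles 1597 and 2023 bp), against 585 bp (quartiles 455 and 760 bp) for the other 54489 day 20 peaks. Together the wide peaks covered 3040 kb, which was 8.04% of the autosomal sequence under day 20 peaks. There were 423 peaks of 2000 bp or more, 42 of 3000 bp or more and 9 of 4000 bp or more. The rule separated peaks that hardly differed at its edge. At 1500 bp exactly lay 2 peaks, in Casq1 (chr1:172213423-172214922) and in Tns3 (chr11:8628528-8630027). A further 7 peaks fell 1 bp short and were left out, among them those in Cplx2 (chr13:54312147-54313645) and Igfbp7 (chr5:77357165-77358663). Widths formed a continuum, and the 1500 bp limit is not a natural break.

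Sequence is shown first for promoters that lay under wide peaks, because it shows what kind of start site these peaks covered. The windows run from 250 bases before to 50 bases after a listed transcription start, come from RefSeq on GRCm38.p6 and are printed 5′ to 3′ along the gene, with every CpG in capitals. The windows of Col11a2, the first Runx3 start, Hopx and Zfp423 lay wholly under a wide peak. Col11a2, encoding a chain of the type XI collagen of cartilage fibrils, and Runx3, a runt-domain transcription factor of chondrocyte maturation, are members of the gene lists used below. Hopx, a small homeodomain protein, and Zfp423, a zinc finger factor, were added after their values were seen. The second Runx3 window is the gene's other listed start, and the Usp2 window, at the gene for a ubiquitin protease, held the most CpGs of all windows that a wide peak touched.
Col11a2, chr17:34038888-34039187, plus strand: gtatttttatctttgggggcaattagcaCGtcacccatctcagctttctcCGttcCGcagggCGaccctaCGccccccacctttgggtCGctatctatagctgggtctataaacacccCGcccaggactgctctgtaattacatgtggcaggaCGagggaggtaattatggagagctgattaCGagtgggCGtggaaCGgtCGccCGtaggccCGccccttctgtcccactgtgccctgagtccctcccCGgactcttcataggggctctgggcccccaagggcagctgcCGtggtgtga
Runx3 first start, chr4:135120395-135120694, plus strand: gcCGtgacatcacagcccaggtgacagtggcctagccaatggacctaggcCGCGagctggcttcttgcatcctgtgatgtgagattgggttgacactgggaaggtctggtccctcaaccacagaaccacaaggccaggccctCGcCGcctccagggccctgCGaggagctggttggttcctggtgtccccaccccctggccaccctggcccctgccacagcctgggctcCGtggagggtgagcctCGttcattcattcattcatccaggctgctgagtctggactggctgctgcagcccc
Runx3 second start, chr4:135152295-135152594, plus strand: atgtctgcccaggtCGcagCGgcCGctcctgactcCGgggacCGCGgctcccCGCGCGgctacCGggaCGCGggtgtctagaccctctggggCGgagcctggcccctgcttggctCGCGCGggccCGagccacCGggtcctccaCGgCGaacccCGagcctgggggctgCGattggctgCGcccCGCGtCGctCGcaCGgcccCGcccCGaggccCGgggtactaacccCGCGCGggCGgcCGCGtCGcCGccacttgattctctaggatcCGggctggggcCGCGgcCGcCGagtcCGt
Hopx, chr5:77115074-77115373, minus strand: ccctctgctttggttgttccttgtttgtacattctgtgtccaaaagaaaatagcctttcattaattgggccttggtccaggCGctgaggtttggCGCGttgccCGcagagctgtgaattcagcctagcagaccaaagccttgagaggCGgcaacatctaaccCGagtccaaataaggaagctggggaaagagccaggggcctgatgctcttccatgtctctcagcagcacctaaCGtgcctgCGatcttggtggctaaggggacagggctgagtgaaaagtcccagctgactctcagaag
Zfp423, chr8:87804390-87804689, minus strand: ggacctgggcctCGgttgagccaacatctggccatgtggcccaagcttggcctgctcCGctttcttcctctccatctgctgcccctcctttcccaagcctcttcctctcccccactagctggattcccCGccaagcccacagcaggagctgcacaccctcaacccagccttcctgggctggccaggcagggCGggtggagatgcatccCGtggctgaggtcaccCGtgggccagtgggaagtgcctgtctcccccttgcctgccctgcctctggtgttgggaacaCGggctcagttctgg
Usp2, chr9:44084670-44084969, plus strand: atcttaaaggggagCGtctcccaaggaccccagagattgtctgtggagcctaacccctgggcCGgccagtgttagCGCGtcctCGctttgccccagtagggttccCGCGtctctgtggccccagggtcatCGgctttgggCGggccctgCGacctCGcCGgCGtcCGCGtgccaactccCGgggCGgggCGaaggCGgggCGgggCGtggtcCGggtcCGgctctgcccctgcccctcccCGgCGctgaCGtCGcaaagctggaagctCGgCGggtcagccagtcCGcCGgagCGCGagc

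Of the covered windows shown, 3 had few CpGs. The Runx3 window under a wide peak of 1966 bp held 8 CpGs in 300 bases. The second Runx3 start, 31.9 kb away, held 45 CpGs, and a narrower day 20 peak reached over only 73 of its bases. The Hopx window held 8 CpGs and the Zfp423 window 7. The Col11a2 window was richer with 16, and its peak of 3543 bp (chr17:34038391-34041933) ran from just inside the end of the neighbouring gene Rxrb into the Col11a2 body. At Usp2 the wide peak of 1568 bp covered 141 bases of the window, which held 8 CpGs (5.67 per 100 bases), and stopped before the remaining 159 bases, which held 24 (15.1 per 100 bases). The remaining CpG spanned the edge of the peak. Among 9 windows with at least 50 bases on both sides of the edge of a wide peak, the uncovered side was denser in CpG in 6 and the covered side in 3. The median densities had the other order, 5.36 CpGs per 100 bases uncovered and 5.67 covered. At the edges of other day 20 peaks the uncovered side was denser in 218 of 339 such windows and the covered side in 114. There the medians were 3.85 uncovered and 2.94 covered.

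Over all windows, few of those under wide peaks were rich in CpG. Of 20084 listed promoter windows of protein-coding autosomal genes, 789 overlapped a day 20 peak of any width (3.93%) and 36 overlapped a wide peak (0.179%), 25 of them wholly covered. These 36 windows held a median of 7 CpGs (quartiles 5 and 9.25), against 8 (quartiles 4 and 18) in the 753 windows under other peaks only and 14 (quartiles 4 and 25) in the 19295 windows without a day 20 peak. Windows with 20 or more CpGs made up 11.1% of those under wide peaks (4 of 36, Wilson interval 4.41 to 25.3%), 21.6% of those under other peaks (18.9 to 24.7%) and 37.7% of those without a peak (37.1 to 38.4%). The interval for wide peaks lay below that of windows without a peak and overlapped that of windows under other peaks, so no difference between wide and other peaks was resolved here. Some covered starts were 1 of several of their gene, and the same count over all windows was not made. In 21 genes a start lay under a wide peak and at least 1 other listed start did not. Paqr7, with both listed starts touched by 1 wide peak, was left out. The richest other start held more CpGs in 16, fewer in 4 and as many in 1, with medians of 6 and 20. The richest start was taken where several others were listed, which favours it. In the 14 of these genes with exactly 2 starts the other start was richer in 10. In 18 of the 21 genes the richest other start had no day 20 peak. That is the usual state, as 19295 of all 20084 windows had none. In Map4, a microtubule-associated protein gene, the start under a wide peak held 5 CpGs and the other, 120 kb away, held 42 without a day 20 peak. In Tmem268 the numbers were 4 and 53 at a distance of 1.46 kb. The start lay exactly at the annotated outer end of its gene in 11 of the 36 windows. The share over all windows was not counted, so no preference can be read from this.

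**Figure D1:**
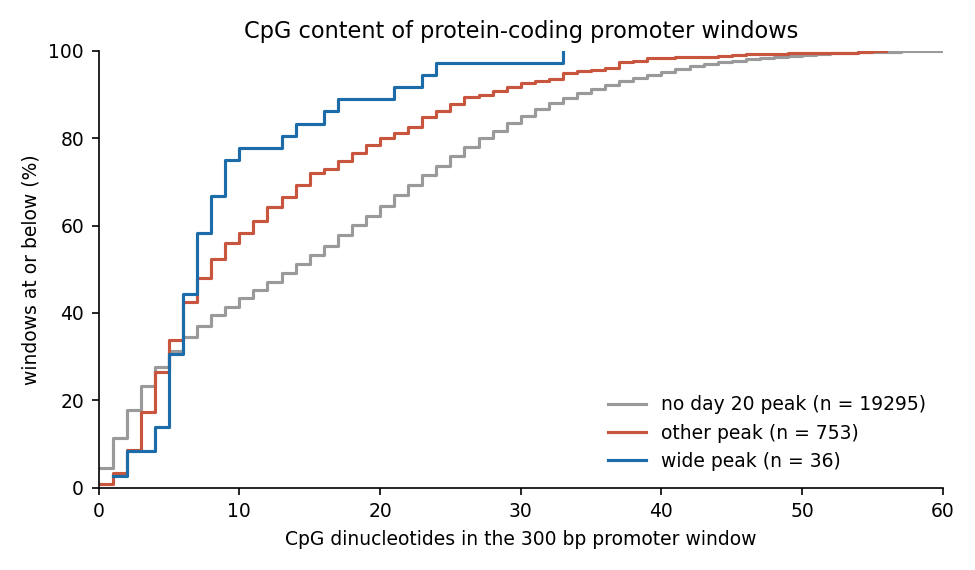
Cumulative share of protein-coding promoter windows (vertical axis, percent of windows) by number of CpG dinucleotides in the 300 bp window (horizontal axis), for 36 windows under a wide peak, 753 under other day 20 peaks only and 19295 without a day 20 peak. The curve for wide peaks climbs early, with a median of 7 CpGs, and the curve for windows without a peak climbs late, with a median of 14.

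By midpoint, wide peaks lay in genes more often than the other day 20 peaks and within 1 kb of start sites less often. Midpoints inside a protein-coding gene made up 66.3% of wide peaks (1070 of 1613, 64.0 to 68.6%) and 53.8% of the others (53.3 to 54.2%), a difference of 12.6 percentage points (Newcombe interval 10.2 to 14.9). The share was higher for wide peaks on 16 of 19 autosomes. For genes of any type the shares were 74.3% and 63.4%, and midpoints more than 5 kb from any gene made up 16.4% and 25.5%. The authors' Annotation column gave a gene symbol to 71.2% of wide peaks (69.0 to 73.4%) and to 32696 of the 54489 others (59.6 to 60.4%), a difference of 11.2 points (8.93 to 13.4). That difference lay in coding transcripts. Accessions beginning NM_, for protein-coding transcripts, were given to 67.9% and 56.6%, and NR_ accessions, for noncoding transcripts, to 3.29% and 3.36% (difference -0.0745 points, -0.855 to 0.924). Of the symbols on wide peaks that matched the gene table, 92.8% belonged to a gene the peak overlapped.

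The share in protein-coding genes rose over the whole range of widths. It was 51.3% for peaks of 176 to 399 bp, 54.4% for 600 to 799 bp, 58.6% for 1000 to 1249 bp and 65.97% for 1500 to 1999 bp, and reached 67.4% (62.8 to 71.7%) at 2000 bp or more. Wide peaks stood at the upper end of this gradient. Against the 5389 peaks of at least 1000 bp but under 1500 bp the difference was 7.16 points (4.48 to 9.78).

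Near start sites the order of midpoints was the opposite. Midpoints within 1 kb of a listed start of a protein-coding gene made up 1.80% of wide peaks (29 of 1613, 1.25 to 2.57%) and 3.10% of the others (2.96 to 3.25%), a difference of -1.30 points (-1.86 to -0.515). Wide peaks had the higher share on 4 of 19 autosomes. Between 1 and 5 kb the shares were 9.05% (7.75 to 10.6%) and 7.37% (7.15 to 7.59%), between 5 and 20 kb 22.0% and 18.1%, and between 20 and 50 kb 26.0% and 21.5%. Farther than 50 kb lay 40.2% and 47.3%. By midpoint, wide peaks had the lower share within 1 kb of a start and beyond 50 kb and the higher share between. By whole peaks the order at the start was the opposite: 2.11% of wide peaks touched a promoter window, against 1.29% of all others (difference 0.818 points, 0.214 to 1.65) and 2.06% of those of at least 1000 bp. A wider interval reaches more sequence, and its midpoint lies farther from its own edges. Width therefore enters both measures, and a wide peak that begins at a start can have its midpoint beyond 1 kb. The same holds at gene ends, where the measure set the direction. For 129 wide peaks (6.77 to 9.42%) and 6.67% of the others an edge came within 1 kb of where a protein-coding gene begins or ends (difference 1.33 points, 0.0838 to 2.77). By midpoint the shares were 3.78% and 5.12% (difference -1.34 points, -2.19 to -0.277). Of 919 listed microRNA hairpins on these chromosomes, 39 lay under a day 20 peak and 2, Mir7662 and Mir7212, under a wide one. Along the gene, positions differed little. In genes with 1 strand and 1 host gene, the median midpoint lay 50.2% of the way from the 5′ end for 841 wide peaks and 47.1% for 23019 others, and the first 20% of the gene held 19.5% and 22.9%. Host genes of wide peaks had a median length of 99.6 kb, against 116 kb for the others.

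**Figure D2:**
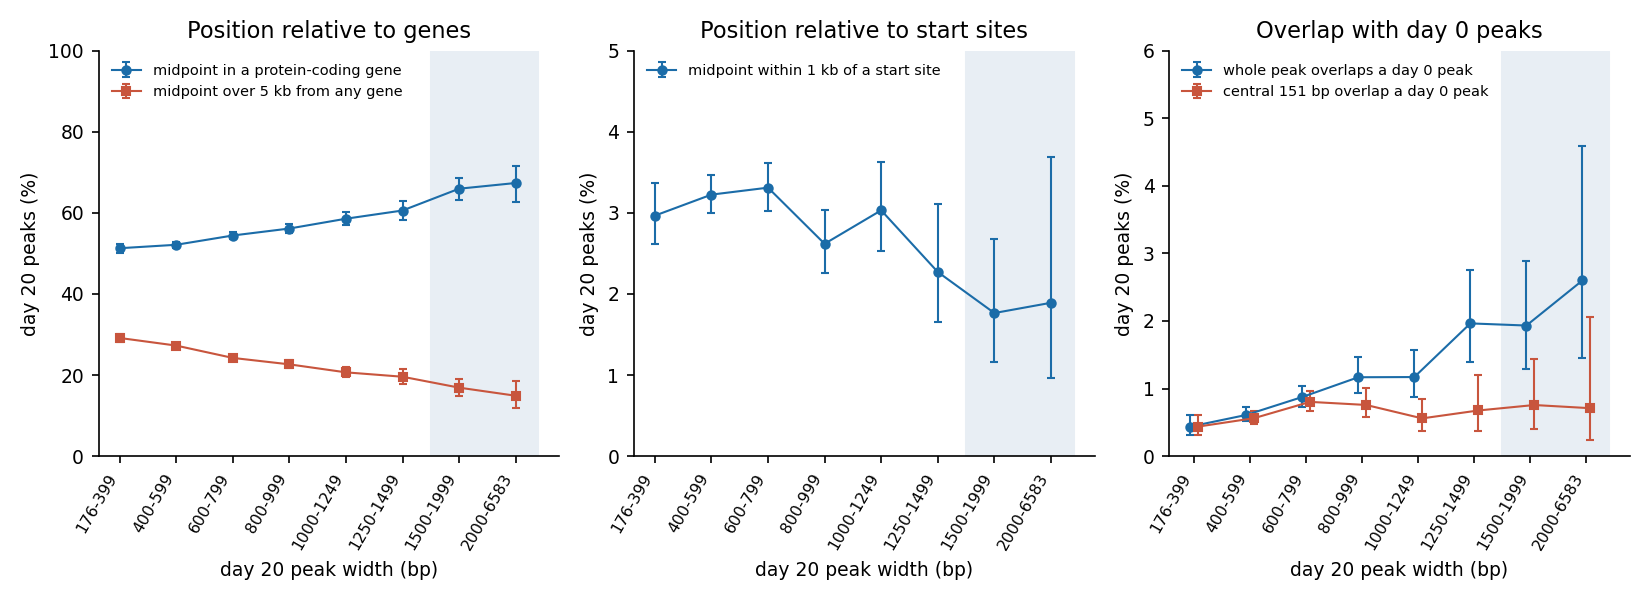
Shares of day 20 peaks (vertical axes, percent) by class of peak width in bp (horizontal axes), with Wilson 95% intervals as bars; shading marks the classes of 1500 bp or more. The share in protein-coding genes rises from 51.3% to 67.4%, the share within 1 kb of a start site is 1.76% and 1.89% in the shaded classes, and overlap with day 0 peaks goes from 0.437% to 2.60% for whole peaks but stays between 0.437% and 0.803% for a central window of equal size.

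Wide peaks sat among other peaks. The median gap to the nearest day 20 peak, edge to edge, was 5381 bp (quartiles 2579 and 8909 bp) for wide peaks and 7337 bp (quartiles 3212 and 14907 bp) for the others, lower for wide peaks on 18 of 19 autosomes. Another day 20 peak lay within 5 kb of 46.9% of wide peaks (44.4 to 49.3%) and 35.2% of the others (34.8 to 35.6%). The other peaks of at least 1000 bp were much like the wide ones, with 45.2% (43.9 to 46.5%) and a median gap of 5576 bp. A wide peak reaches closer to its neighbours by construction. From midpoint to midpoint the medians were 6800 and 8020 bp, and the shares within 5 kb were 31.8% and 30.2%, a difference of 1.60 points whose interval (-0.659 to 3.95) included 0. The other peaks of at least 1000 bp lay closer by this measure, with a median of 6608 bp and 35.8% within 5 kb. Over a longer range wide peaks had more neighbours, with a median of 13 other day 20 peaks within 100 kb of the midpoint (quartiles 10 and 16), against 9 (quartiles 6 and 13), and a higher median on all 19 autosomes. For the other peaks of at least 1000 bp the median was 12. Wide peaks were not more often split from a neighbour by a small gap. A gap of 200 bp or less was found for 4.65% of wide peaks and 4.62% of the others.

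The neighbours were wider too. The nearest day 20 peak had a median width of 839 bp (quartiles 638 and 1151 bp) beside a wide peak and 595 bp (quartiles 463 and 786 bp) beside the others, and the order was the same on all 19 autosomes. Beside the other peaks of at least 1000 bp the median was 728 bp, between these values. The nearest neighbour was itself wide for 194 wide peaks (12.03%) and for 2.65% of the others. Wide peaks followed each other without a narrower peak between in 148 runs, which held 327 of the 1613. The longest run, of 5, spanned 38.2 kb on chromosome 5 (chr5:112254187-112292384) from Crybb1, a lens crystallin gene, to Tpst2, which encodes a tyrosylprotein sulphotransferase, with widths of 2739, 1782, 2017, 2259 and 2652 bp. There were 4 runs of 4. The shortest of them covered 26.45 kb on chromosome 7 (chr7:67477183-67503632) outside protein-coding genes, with its last peak 9.78 kb from Lrrc28. The next lay in Tcf7l1, a transcription factor of the WNT pathway, with widths of 2833, 2183, 1607 and 1546 bp (chr6:72739964-72770129).

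Some wide peaks lay far from their nearest neighbour. The farthest from another day 20 peak lay near the start of chromosome 4 (chr4:3089443-3091239, 1797 bp), 141 kb from the next, and overlapped 3 day 0 peaks. The second (chr9:123927422-123929705, 2284 bp), 82.0 kb from the next, overlapped 2. The third lay in Hoxb3, a homeobox gene (chr11:96333167-96335155, 1989 bp), 62.7 kb from its nearest neighbour and without a day 0 peak. The others of the 6 most isolated by this gap lay in Eef2, Rbm33 and Mast4, at 60.9, 56.8 and 53.9 kb. A long gap did not always mean few neighbours. The Hoxb3 peak had 9 other day 20 peaks within 100 kb and the Mast4 peak 8. The peaks on chromosomes 4 and 9 and those in Eef2 and Rbm33 had 0, 1, 2 and 1. Of these 6 peaks, 4 overlapped a day 0 peak, as did 34 of all 1613 wide peaks (2.11%). Those on chromosomes 4 and 9 and in Eef2 and Mast4 had 8, 3, 2 and 1 day 0 peaks within 100 kb. These 6 are the extreme of a ranking, and a link between gap and day 0 overlap was not tested.

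Overlap with the chondroprogenitor list was small and depended on what was compared. Sharing 1 bp or more with a day 0 peak was counted as overlap, which 0.834% of day 20 peaks of every width showed. Of the wide peaks 34 did (2.11%, 1.51 to 2.93%), against 0.796% of the others (0.725 to 0.875%), a difference of 1.31 points (0.711 to 2.14). All 52 day 0 peaks concerned lay wholly inside the wide peak, and they were narrow, with a median of 152.5 bp. When a window of 1 size around every midpoint was used, so that width did not lengthen the stretch compared, 0.744% of wide peaks (0.426 to 1.30%) and 0.631% of the others (0.568 to 0.701%) overlapped a day 0 peak. That difference of 0.113 points had an interval (-0.213 to 0.668) that included 0. The window is a smaller part of a wide peak and leaves out more of it. It held the overlap in 12 of 34 wide peaks and in 344 of 434 others. Day 0 peaks lay a median of 377.5 bp from the midpoint of the wide peak that held them. Among the wide peaks, 27 held 1 day 0 peak, 4 held 2 and 3 held more.

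The peaks with several day 0 peaks lay mostly outside genes, 5 of 7 of them overlapping no protein-coding gene. Near the start of chromosome 9 a wide peak of 2674 bp (chr9:3025231-3027904) held 8 day 0 peaks and a second of 1633 bp (chr9:2999911-3001543) held 6, in a stretch with 54 day 0 peaks within 100 kb and over 300 kb from the nearest protein-coding gene. The peak at the start of chromosome 4 held 3, with 8 within 100 kb. On chromosome 14 a peak of 4158 bp (chr14:19415628-19419785), 114 kb from the nearest protein-coding gene, held 2 day 0 peaks of 1575 and 2361 bp, far wider than the rest. The sequence of these stretches was not analysed here. Without peaks that had 3 or more day 0 peaks within 100 kb, the difference in overlap between wide and other peaks was 1.17 points (0.610 to 1.97).

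Of the 34 wide peaks with a day 0 peak, 22 overlapped a protein-coding gene (64.7%), near the 67.5% of all wide peaks (1089 of 1613). The widest was in Bahcc1, encoding a bromo-adjacent homology domain protein (chr11:120257086-120261477, 4392 bp), with a day 0 peak of 161 bp. In Sulf2, an extracellular endosulphatase that trims heparan sulphate, a wide peak of 2921 bp (chr2:166101648-166104568) held a day 0 peak of 130 bp close to its midpoint. Others in the 12 widest lay in Cdc42ep4, an effector of CDC42, in Adamtsl3, a matrix protein of the ADAMTS-like family, and in Enah, an actin regulator. Outside genes they lay 5.65 kb from Usp10, 13.7 kb from Klf15 and 35.3 kb from Foxd1. The 12th, in Pptc7, encoding a mitochondrial phosphatase, spanned 1999 bp (chr5:122319445-122321443) with a day 0 peak of 156 bp near its midpoint. Narrower members with a day 0 peak, chosen after their values were seen, included Igf1r, the receptor for IGF-1 (1775 bp), Prrx2, a mesenchymal homeobox gene (1570 bp), and Tns3, a focal adhesion gene (1500 bp).

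Among the 12 widest peaks, 11 overlapped a protein-coding gene, as did 67.5% of all wide peaks, and the exception was the chromosome 14 peak named above. The first spanned 6583 bp in Ube3b, a ubiquitin ligase gene (chr5:114407054-114413636). A peak in Lrp5, a WNT coreceptor known for its role in bone mass, spanned 5126 bp (chr19:3639372-3644497). Others lay in Rhbdf2, an inactive rhomboid protease (4603 bp), Bahcc1 (4392 bp), Scube3, a secreted signalling protein of the skeleton (4173 bp), and Adcy5, an adenylyl cyclase (4171 bp). Smad6, an inhibitor of BMP signalling, held a peak of 4052 bp (chr9:63967445-63971496), and Tpcn1, a two-pore channel gene, held 1 of 3898 bp. Gse1 held 1 of 3833 bp to which the authors' annotation gave no gene, and Ldb3, a muscle Z-line protein gene, 1 of 3802 bp. Of these 12, the peaks in Bahcc1 and on chromosome 14 overlapped day 0 peaks and the other 10 did not.

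By position, 782 of 20661 protein-coding autosomal genes (3.78%) overlapped a wide peak, while 8726 (42.2%) overlapped a day 20 peak of any width. Of the 782, 591 carried 1 wide peak and 191 carried 2 or more, up to 8. Longer genes carried one more often: 12.97% of genes in the longest decile carried a wide peak and none in the shortest decile. The genes with a wide peak had a median length of 72.6 kb, against 17.5 kb for all.

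The genes with the most wide peaks were listed to the 12th place, where ties at 5 wide peaks were broken by the total width of those peaks. Zmiz1, a transcriptional coregulator of the PIAS-like family, carried 8 wide peaks among 16, of 2085, 3392, 3117, 2317, 2638, 2670, 1838 and 1748 bp in coordinate order. The median width of its 16 peaks, 1507 bp, was itself above the limit. Gse1 carried 8 among 37, of which the authors' annotation assigned 3 to it. Sh3pxd2a, a podosome scaffold gene, and Xxylt1, a xylosyltransferase of Notch glycosylation, carried 7 each. Tcf7l1, 2900026A02Rik, Slc39a11, a zinc transporter gene, and Zfp469, linked to corneal collagen, carried 6 each. The authors' annotation assigned none of the 6 in Zfp469 to it. Crispld2, a secreted protein gene, carried 5 among 8, with a median width of 1743 bp, and Nfix, a nuclear factor I gene, carried 5 among 10. Med13l, a Mediator kinase module gene, carried 5 among 26. The 10 genes with the most day 20 peaks held 515 peaks of which 20 were wide (3.88%), close to the 3.54% of all day 20 peaks overlapping a protein-coding gene. Wwox carried 2 wide peaks among 61, Foxp1 2 among 59, Glis3 3 among 45, Auts2 4 among 61 and Kcnma1 4 among 44. Zfhx3 carried 5 among 51, as many wide peaks as Crispld2, Nfix and Med13l, and missed the first list only by the tie. Lrmda, Pde4d, Cacna2d3 and Ppargc1a carried none among 51, 50, 49 and 44. These are very long genes, from 421 kb to 1302 kb, whereas the 12 genes with the most wide peaks ranged from 60.4 to 405 kb.

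**Figure D3:**
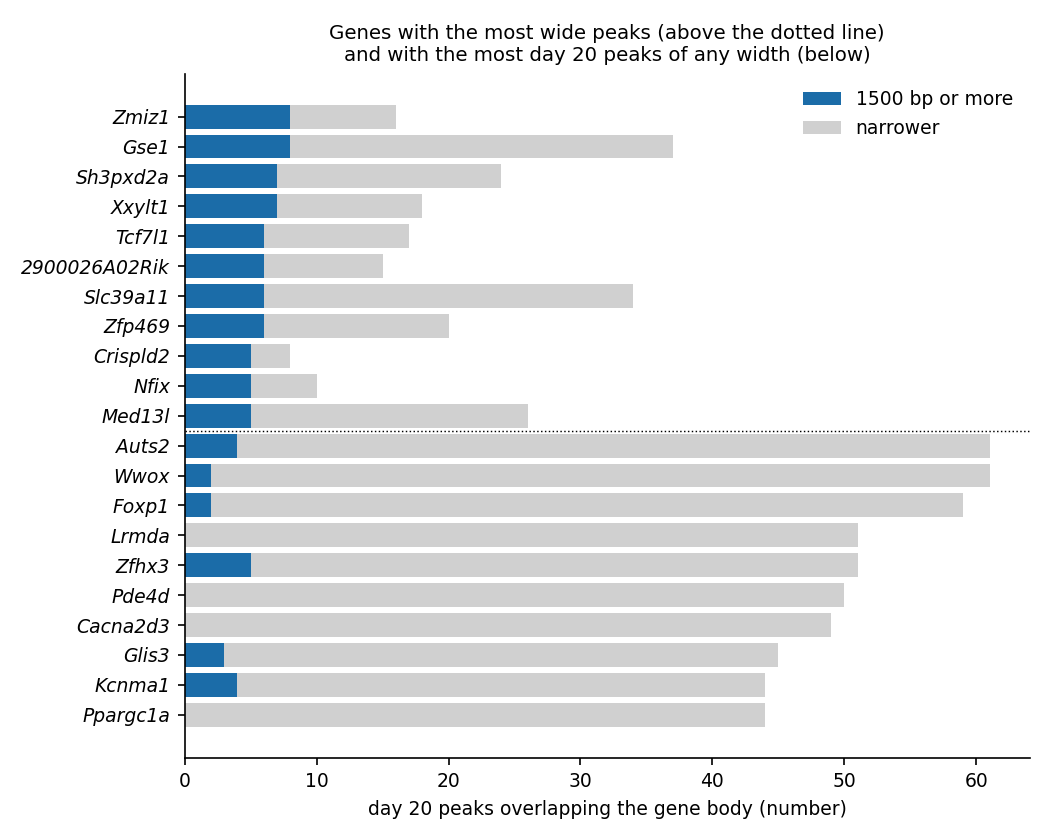
Number of day 20 peaks overlapping the gene body (horizontal axis) for 11 of the 12 genes with the most wide peaks and the 10 genes with the most day 20 peaks of any width, with peaks of 1500 bp or more in blue and narrower ones in grey. Zmiz1, Crispld2 and Nfix have at least as many wide as narrower peaks, while 4 of the lower 10 genes have no wide peak.

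Of 364 autosomal members of 18 gene lists, 59 (16.2%) carried a wide peak, against 3.78% of all protein-coding genes. The lists also differed in gene length. Their median lengths ran from 4.74 to 189.8 kb, against 17.5 kb for all genes. The share over all genes ran up to 12.97% in the longest decile. Hypertrophy and mineralisation genes, of median length 12.8 kb, carried a wide peak in 23.5% of members. Neuronal genes, of median length 170.1 kb, carried one in 0 of 12. The counts describe the lists and do not test them. Per day 20 peak rather than per gene, the lists held between 0 and 21.2% wide peaks. Of all day 20 peaks overlapping a protein-coding gene, 3.54% were wide.

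Cartilage matrix genes carried a wide peak in 2 of 19 members, with 14 members carrying any day 20 peak. Col27a1, a fibrillar collagen of cartilage, held 3 among 10, of 2403, 1745 and 1946 bp, the first of them 3.22 kb from the 5′ end. Col11a2 held 1 among 3. Col2a1, the main collagen of cartilage, held 1 peak of 1049 bp, and Acan, encoding aggrecan, held 4 of at most 1134 bp, so neither reached the limit. Chondrogenic transcription factors carried a wide peak in 7 of 24 members, with 13 wide among 301 peaks (4.32%). Runx2, which drives hypertrophy and bone formation, held 3 among 28, of 2144, 1719 and 1747 bp, at 97.1%, 92.5% and 69.6% of the way along the gene from its 5′ end. The authors' annotation left all 3 without a gene. Glis3, a Krüppel-like zinc finger factor, also held 3, and Gli2, a hedgehog effector, and Runx3 held 2 each. Sox9, the master regulator of chondrogenesis, held 1 peak of 443 bp and no wide peak, although the authors' annotation assigned to it a wide peak of 1627 bp lying 5.49 kb outside the gene (chr11:112775095-112776721).

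Hypertrophy and mineralisation genes carried a wide peak in 4 of 17 members, with 7 wide among 33 peaks (21.2%). Alpl, the tissue-nonspecific alkaline phosphatase of mineralising cartilage, held 3 among 6, of 2478, 2506 and 1716 bp, the last centred 2.07 kb from the 5′ end. Ank, a transporter in pyrophosphate control, held 2 of 1511 and 1600 bp, and Adamts5, an aggrecanase, and Slc20a2, a phosphate transporter, held 1 each. Col10a1, encoding the type X collagen that marks hypertrophy, had a single narrow peak (407 bp). TGF-beta and BMP genes carried a wide peak in 7 of 32 members. Smad3, which carries the TGF-beta signal, held 5 among 13, of 1598, 2257, 2100, 2061 and 1760 bp, and the neighbouring Smad6 held 3 among 7. Tgfb2, a ligand, held 2, and Tgfbr2, a receptor, held 1 of 2045 bp.

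WNT genes carried a wide peak in 7 of 32 members, with 19 wide among 177 peaks (10.7%). Tcf7l1 held 6. Nkd1, a feedback inhibitor, held 4 among 8, all between 1561 and 1721 bp, the first centred 1.29 kb from the 5′ end. Tcf7l2, a partner of beta-catenin, held 3, and Lrp5 held 2. Insulin and IGF genes carried one in 6 of 26 members. Irs1, the substrate of the insulin and IGF-1 receptors, held a peak of 3134 bp centred 3.05 kb from the 5′ end. Rptor, the mTOR complex subunit raptor, held 2 of 2914 and 1650 bp, Pik3r1, the regulatory subunit of PI3-kinase, held 2, and Tsc2, an inhibitor of mTOR, held 1. Hedgehog and FGF genes carried one in 4 of 24 members, among them Gli2 and Sufu, its inhibitor (2889 bp), and the receptors Fgfr1 (2233 bp) and Fgfr2 (1601 bp).

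Genes of proteoglycan synthesis and sulphation carried a wide peak in 3 of 30 members, with 5 wide among 145 peaks (3.45%). These were Sulf2 and the chondroitin sulphotransferase gene Chst11 with 2 each and Chst3 with 1 of 2297 bp. Genes of cytosine methylation and oxidation carried one in 1 of 18 members. That was Tet3, with 2 wide peaks of 1531 and 1642 bp among 8, while the widest peak of Tet1 spanned 1460 bp and that of Tet2 637 bp. Integrin, cytoskeleton and adhesion genes carried one in 10 of 25 members, the highest share of the lists (40.0%), in genes of median length 99.0 kb. Any day 20 peak was carried by 21 of the 25. Per day 20 peak the list was not the highest, with 18 wide among 221 peaks (8.14%), against 21.2% for hypertrophy and mineralisation genes. Myh9, the heavy chain of nonmuscle myosin, held 3 of 2315, 2924 and 1506 bp. Itga11, the alpha chain of a collagen receptor, and Lpp, a focal adhesion protein gene, also held 3 each, and Pxn, encoding paxillin, held 2. Nuclear receptor and coregulator genes carried one in 6 of 24 members. Rxra held 3 of 2047, 1888 and 2075 bp, and Thra, a thyroid hormone receptor gene, and Ppard held 2 each. Rxrb counted through the Col11a2 peak, of which 13 bp lay in it.

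Fibroblast and mesenchymal progenitor genes carried a wide peak in 3 of 20 members. Col5a1, a collagen that regulates fibril diameter, held 4 among 11, of 2212, 1698, 1757 and 1943 bp, all in the first 31.6% of the gene. Col1a1, the main collagen of bone, held 1 of 2004 bp, and Prrx2 held 1. In the lists of adipocyte, skeletal muscle, neuronal, haematopoietic and immune, liver and housekeeping genes, no member carried a wide peak. Those 6 lists had 77 autosomal members, of median length 13.7 kb, and 72 day 20 peaks in all. The neuronal genes among them were long, with a median of 170.1 kb, and 8 of 12 carried a day 20 peak. A count of 0 in 72 allows a share of up to 4.17%, which is above the 3.54% of all day 20 peaks in protein-coding genes, so an absence could not be told from the overall share.

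Wide peaks were unevenly spread over the chromosomes. They made up 4.89% of day 20 peaks on chromosome 11 (187 of 3827, 4.25 to 5.62%), 4.84% on chromosome 5 (4.23 to 5.53%) and 4.25% on chromosome 8 (3.62 to 4.99%). The lowest shares were 0.686% on chromosome 12 (10 of 1458, 0.373 to 1.26%), 1.02% on chromosome 18 and 1.19% on chromosome 3. Per length, chromosome 11 held 1.53 wide peaks per Mb and chromosome 12 held 0.0833. Across the 19 autosomes the wide share was higher where day 20 peaks were denser (Spearman's rho 0.651, Pearson's r 0.688) and where protein-coding genes were denser (rho 0.612, r 0.507). These are descriptions over 19 chromosomes of 1 list, and base composition was not used here. With the other peaks weighted to the chromosome mix of the wide peaks, the difference was 11.5 points in place of 12.6 for protein-coding genes and -1.43 in place of -1.30 for start sites.

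**Figure D4:**
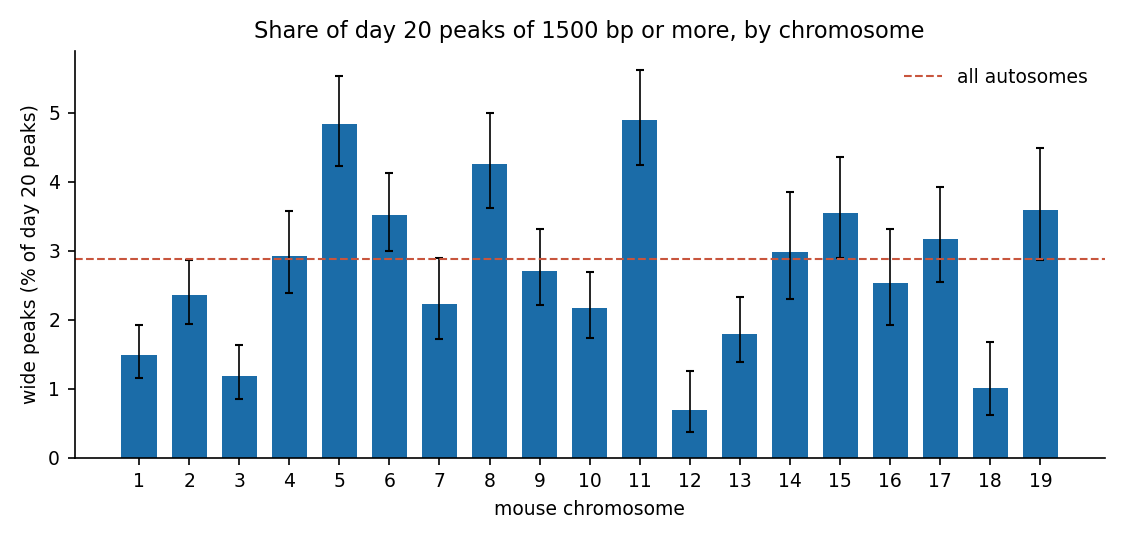
Wide peaks as a percent of all day 20 peaks (vertical axis) on each of the 19 mouse autosomes (horizontal axis), with Wilson 95% intervals as bars and the share over all autosomes, 2.88%, as a dashed line. Chromosomes 5, 6, 8, 11 and 15 lie above the line and chromosomes 1, 2, 3, 10, 12, 13 and 18 below it, with intervals that do not reach it.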

How the data were processed

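The deposited data were 2 peak lists of start and end positions in base pairs, which carry no unit of signal and are here treated as other values. Per the file headers, the authors merged the samples of day 0 and those of day 20 and kept peaks of 10-fold enrichment. The sources used here do not say against what, nor whether the list for day 20 includes the day 19 library. The submitters' processing notes name MACS 1.4.2, BWA, cutadapt, FastQC and the build GRCm38 (mm10), without saying what each did. Of the day 20 entries, 3 had no readable position and 593 lay outside chromosomes 1 to 19. Both were left out, as were 24 day 0 peaks.

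The Annotation column held a gene symbol or none, so its classes were symbol, NM_ accession, NR_ accession and none. Gene positions came from RefSeq on GRCm38.p6, with 20661 protein-coding autosomal genes, and start sites from 20084 promoter windows of 16456 of them (79.6%). Start sites of the rest, exons and peak sequence were not used here. A gene carried a peak when they overlapped by at least 1 bp. Shares have Wilson intervals and differences Newcombe intervals, at 95%. No p-value was computed, since each stage was 1 merged list. All 377 list symbols matched the table.

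The members, the gene lists and the rules were chosen with earlier results of these data known. Named genes followed a rule: the 12 widest peaks, the 12 widest overlapping a day 0 peak, the 12 genes with the most wide peaks, up to 4 per list, 8 fixed genes, the peaks at the limit, the 6 most isolated and the 3 longest runs, with ties between runs broken by the shorter span. Any other gene was picked with its values in view. Values for 1 gene under this rule are not reported here. Overlap and neighbour steps were tested on simulated data. Computation used Python 3.11.15, numpy 2.4.6, pandas 2.3.3, scipy 1.17.1 and matplotlib 3.10.9.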

Additional observations from a re-analysis of the deposited data

How the results depend on the processing

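No paired analysis was possible because samples were merged before peaks were listed, and no library could be left out for the same reason. Alternatives on start sites, chromosome mix and dense day 0 regions were chosen after seeing the data. The share within 1 kb of an end of a protein-coding gene reversed with the measure: by peak edge wide peaks lay 1.33 points above the others and by midpoint -1.34 points. Overlap with day 0 peaks moved from 1.31 to 0.113 points for a central window of equal size. It moved to 0.698 points (0.00617 to 1.57) against other peaks of at least 1000 bp. Against those peaks the differences were 6.29 points for gene symbols and 7.16 for protein-coding genes. With the limit 250 bp lower (3242 peaks), gene symbols moved to 8.71 points, protein-coding genes to 9.90, the neighbour's width to 205 bp from 244, the share on chromosome 11 to 8.68% and carrying genes to 1331. With the limit at 2000 bp (423 peaks), the last 3 became 278 bp, 1.23% and 247, and list members fell from 59 to 31. At 2000 bp the interval of the start site difference (-1.18 points, -2.12 to 0.623) included 0. The difference in distance to the nearest peak was -1956 bp, -1220 bp between midpoints, -4485.5 bp to the next peak in order and -1631.5 bp after merging peaks within 1 kb. Shares within 5 kb differed by 1.60 points between midpoints, against 11.6 edge to edge. The neighbour's width differed by 280.5 bp within 5 kb. Merging gave 3582 wide peaks, 8.01 points in protein-coding genes and 1559 genes. The authors' annotation gave 784 genes and 57 list members, and 5 kb margins gave 918 and 66. Of 56 named genes, the number of wide peaks stayed within 1.5 times in 47 with the lower limit, in 18 at 2000 bp, in 52 by the authors' annotation and in 55 with margins. Depth, height and replicate spread were not measurable from positions alone.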
